A study of Mus musculus with 19 samples.

Results

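The report concerns 10 genes of bone morphogenetic protein (BMP) signalling in mouse embryonic stem cells: the ligands Bmp4 and Bmp7, the receptor Bmpr1a, the signal transducer Smad1, the intracellular inhibitor Smad6, and the target genes Id1, Id2, Id3, Id4 and Msx2. They were taken by gene symbol from a deposited table of 21685 genes, and all 10 were present in it. The cells were male C57BL/6 lines cultured in serum with leukaemia inhibitory factor, enriched by magnetic sorting for SSEA-1, a surface antigen of undifferentiated cells, and profiled by mRNA sequencing. TRIM71 is a stem cell RNA-binding protein and ubiquitin ligase, and LIN28A is an RNA-binding protein that blocks the maturation of let-7 microRNAs, short RNAs that repress mRNAs carrying matching sites.

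4 genotypes were compared, named with the Trim71 state first. WT-WT cells (n = 4 libraries) carried floxed, intact alleles of both genes (Trimfl/fl - Lin28afl/fl in the labels, which shorten Trim71 to Trim). KO-WT cells (n = 4) were Trim-/- - Lin28afl/fl, WT-KO cells (n = 5) were Trimfl/fl - Lin28a-/-, and KO-KO cells (n = 5) were Trim-/- - Lin28a-/-. Trim71 loss was induced in floxed cells with 500 nM 4-OHT (4-hydroxytamoxifen) for 2 days, and harvest followed at least 7 days later. The labels do not say when or how Lin28a was deleted, nor whether the undeleted cells were given 4-OHT. Each Lin28a state was carried by its own clones, clones 1 and E3 when intact and clones 1-4 and C1 when deleted, so that a difference between Lin28a states cannot be told apart from a difference between clones. Trim71 loss was compared within the same clones.

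BMP ligands bind paired serine/threonine kinase receptors, among them BMPR1A, which phosphorylate SMAD1 and its relatives. Phosphorylated SMADs enter the nucleus with SMAD4 and activate targets such as the Id genes, whose products bind E proteins and keep them from DNA. SMAD6 and SMAD7 are induced by the pathway and inhibit it. In mouse embryonic stem cells, BMP4 acts with leukaemia inhibitory factor to hold back differentiation, and Id genes are among its best-known targets there.

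Values were taken as log2 from their range, since their transform is not stated. On that reading a difference of 1 is a doubling, and fold sizes and summed levels apply to the deposited scale only. The values had been freed of differences between harvest days before deposit. Another KO-WT library, replicate 5, held only the average of its 4 fellows and was left out. Read depth is not given in the sources used here, so no counting interval is stated. In limma, 14988 of the 21685 genes were tested, all 10 BMP genes among them, and a gene is called changed where its Benjamini-Hochberg adjusted p over all tested genes is under 0.05. Trim71 mRNA averaged 10.21 ± 0.121 in WT-WT and 10.65 ± 0.203 in WT-KO cells against 8.89 ± 0.138 in KO-WT and 9.28 ± 0.179 in KO-KO cells (SD). Lin28a mRNA averaged 10.13 ± 0.158 in WT-WT and 9.84 ± 0.108 in KO-WT cells against 8.47 ± 0.0881 in WT-KO and 8.28 ± 0.0621 in KO-KO cells. The stem cell markers Pou5f1 (12.55 to 12.93), Sox2 (11.37 to 11.76) and Nanog (12.12 to 13.36) were high in every library. Labels separate harvest days and clones but do not say that cultures were independent, so the p-values measure the spread between these libraries, part of which may be technical.

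Because the study was about let-7, the sequence of its seed is shown first. All 9 mature let-7 family members in the RefSeq table share bases 2 to 8, in capitals here:
let-7a: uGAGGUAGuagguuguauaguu
The matching 7-base site, CTACCTC, was found in the longest annotated 3′ UTR (GENCODE vM21) of 0 of the 10 BMP genes, whereas 1528 of 12549 tested genes with a 3′ UTR (12.2%) held it. Among 43 other tested genes of the BMP pathway, 6 held the site, namely Bmp8b, Gdf3, Tgfbr3, Chrd, Skil and Hand1. No match says only that these letters are not in those UTRs.

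For 3 target genes that differed between Lin28a states, Id2 and Msx2 (lower in Lin28a-null cells) and Id4 (higher), the 250 bases before the RefSeq transcription start are given, with capitals marking GGCGCC, a palindromic core of BMP-responsive elements. The build is GRCm38.p6. Id2 lies on the minus strand (chr12:25096093-25096342), Msx2 on the minus strand (chr13:53472781-53473030) and Id4 on the plus strand (chr13:48260866-48261115).
Id2: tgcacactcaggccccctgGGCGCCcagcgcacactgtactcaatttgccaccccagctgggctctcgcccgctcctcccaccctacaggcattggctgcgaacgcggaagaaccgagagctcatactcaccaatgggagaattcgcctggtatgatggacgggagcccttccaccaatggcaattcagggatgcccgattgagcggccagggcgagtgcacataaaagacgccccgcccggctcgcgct
Msx2: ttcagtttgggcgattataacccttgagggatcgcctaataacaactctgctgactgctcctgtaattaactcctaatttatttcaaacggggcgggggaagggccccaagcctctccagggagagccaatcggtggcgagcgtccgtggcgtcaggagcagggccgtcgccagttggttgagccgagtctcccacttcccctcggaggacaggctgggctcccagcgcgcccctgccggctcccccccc
Id4: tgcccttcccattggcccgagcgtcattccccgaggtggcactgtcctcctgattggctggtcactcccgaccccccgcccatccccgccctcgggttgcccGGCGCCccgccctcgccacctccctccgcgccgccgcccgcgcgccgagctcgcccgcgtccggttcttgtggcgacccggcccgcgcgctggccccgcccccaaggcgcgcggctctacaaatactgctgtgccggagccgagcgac
The motif lay at bases -231 to -226 of Id2 and -148 to -143 of Id4, 2 genes whose mRNAs differed in opposite directions between Lin28a states, and not in this window of Msx2. Promoter windows reaching from 250 bases before to 50 after the start were matched for 8 of the 10 genes, not for Id1 and Bmp7, and of these 8 only Bmpr1a (-198 to -193) held GGCGCC besides Id2 and Id4, while 11.9% of 32851 such windows held it on either strand. The SMAD-binding letters GTCTAG (on the other strand CTAGAC) occurred in 1 of the 8 windows, Smad6, at 2 overlapping positions (-4 to 2 and -2 to 4), against 8.37% of windows. A match describes the letters and is not a shown binding site.

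In both backgrounds Id2, Id3, Id4 and Msx2 differed with the Lin28a state and Bmp4 with the Trim71 state, and Bmp7 was called for neither gene. Id1 was called for Lin28a loss in both backgrounds, and for Trim71 loss with Lin28a intact. With Lin28a lost and Trim71 intact (WT-KO against WT-WT), Smad1 and Id4 rose and Bmpr1a, Id1, Id2, Id3 and Msx2 fell: 7 of 10 genes were called, where 42.4% of all tested genes were called (20.3% higher and 22% lower). With Lin28a lost in Trim71-null cells (KO-KO against KO-WT), 6 of 10 were called (Id4 higher, with Smad6, Id1, Id2, Id3 and Msx2 lower), against 42.8% of all genes (20.8% higher and 22% lower). With Trim71 lost, Bmp4 and Id1 rose where Lin28a was intact (KO-WT against WT-WT, 2 of 10 genes, against 11.2% of all genes, 4.74% higher and 6.43% lower), and Bmp4 alone rose where Lin28a was absent (KO-KO against WT-KO, 1 of 10, against 8.38%, 4.26% higher and 4.12% lower). With both lost (KO-KO against WT-WT), 8 of 10 were called, Bmp4, Smad1 and Id4 higher and Bmpr1a, Smad6, Id1, Id2 and Msx2 lower, against 45.6% of all genes (21% higher and 24.6% lower), and groups did not overlap for 6 of 10, against 44.5% of all genes. These comparisons share genotypes pairwise and are not independent of each other.

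**Figure D1:**
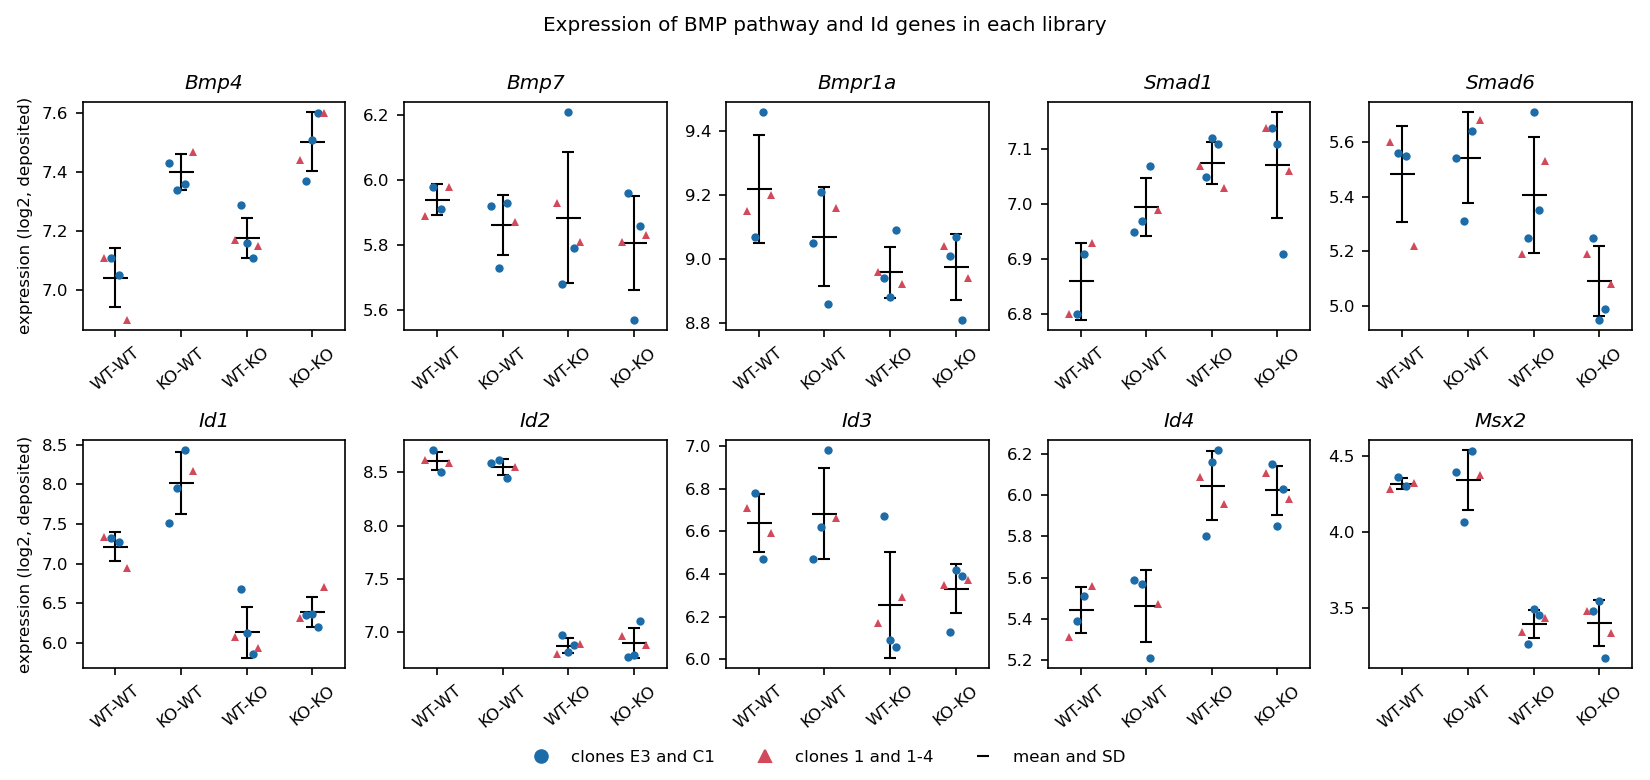
Expression on the deposited log2 scale (vertical axes, scaled per gene) of the 10 genes in the 18 libraries, by genotype, with clones E3 and C1 as circles, clones 1 and 1-4 as triangles and bars for the mean and SD. Id2 and Msx2 sit lower and Id4 higher in both Lin28a-null genotypes, Bmp4 sits higher in both Trim71-null genotypes, and Id1 is highest in KO-WT.

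**Figure D2:**
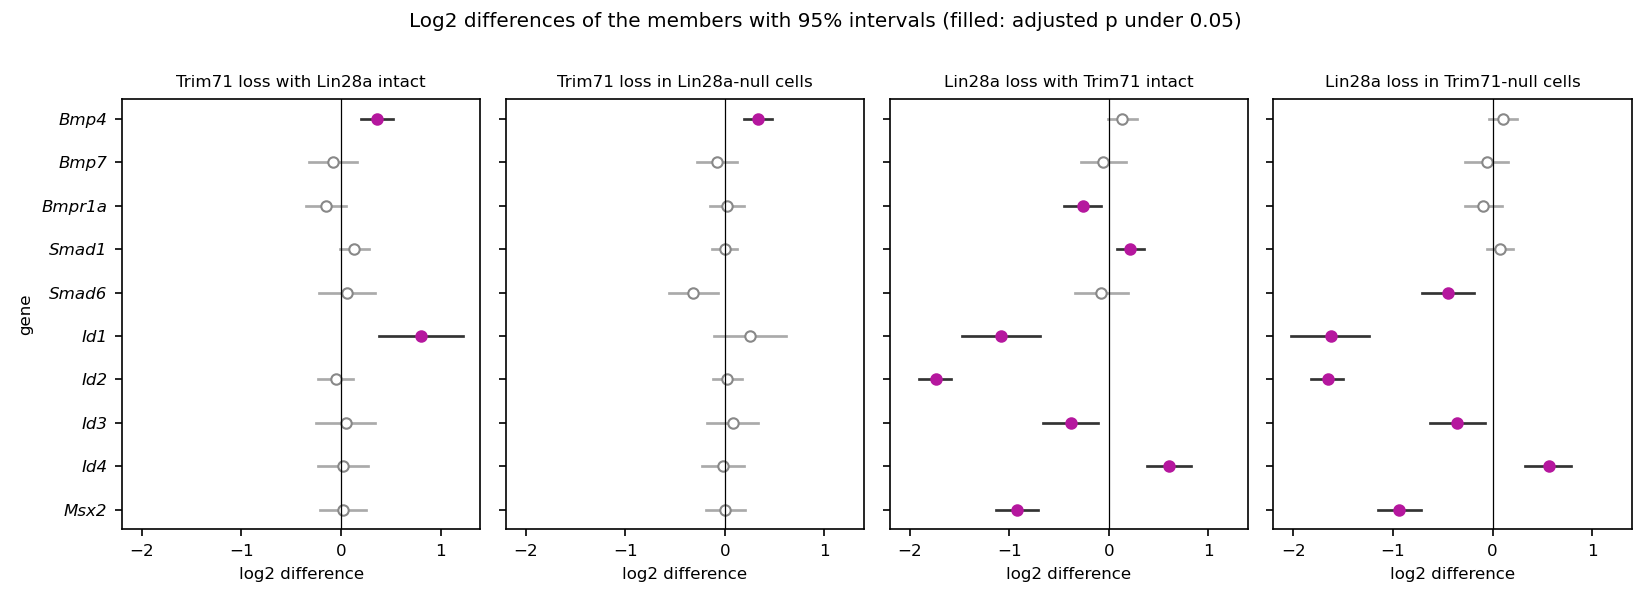
Log2 differences (horizontal axes) of the 10 genes in 4 comparisons, with 95% intervals from limma and filled points where the adjusted p was under 0.05. In the 2 comparisons of Trim71 loss only Bmp4 and Id1 carry filled points, and in the 2 of Lin28a loss Id2 has the largest difference (-1.74 and -1.66) after which Id1 and Msx2 follow.

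Among the ligands, Bmp4, the BMP ligand most studied in embryonic stem cells, rose with loss of Trim71 in both Lin28a states. Its log2 values were 7.11, 7.11, 7.05 and 6.90 in WT-WT libraries 1 to 4 and 7.43, 7.34, 7.36 and 7.47 in KO-WT libraries 1 to 4. In Lin28a-null cells they were 7.17, 7.29, 7.16, 7.11 and 7.15 in WT-KO libraries 1 to 5 and 7.44, 7.37, 7.51, 7.60 and 7.60 in KO-KO libraries 1 to 5. Every Trim71-null library lay above every Trim71-intact library, and the genotypes compared did not overlap. Groups that do not overlap were common in the first comparison: 3 of the 10 genes (Bmp4, Smad1 and Id1) and 28.2% of all tested genes, against 1 of 10 (Bmp4) and 12.6% in the second.

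Bmp4 was higher by 0.36 ± 0.0751 (log2 difference ± SE) with Lin28a intact and by 0.33 ± 0.0643 without it, with adjusted p = 0.00965 and 0.00487 in limma, or 1.28-fold and 1.26-fold. Libraries of the same harvest day differed in that direction in 3 of 3 and 5 of 5 pairs, which follows from groups that do not overlap. The 2 differences did not differ from each other by the test of the interaction (-0.03 ± 0.0989, adjusted p = 0.918, 95% interval -0.24 to 0.18). With Lin28a lost, Bmp4 was 0.13 ± 0.0695 higher where Trim71 was intact (adjusted p = 0.131) and 0.11 ± 0.0695 higher where it was not (adjusted p = 0.235), neither called. The order of its means was therefore KO-KO (7.51 ± 0.101, SD), KO-WT (7.40 ± 0.0602), WT-KO (7.18 ± 0.0648) and WT-WT (7.04 ± 0.101), of which KO-KO and KO-WT, and WT-KO and WT-WT, were not told apart by the test, while WT-KO was lower than KO-WT (-0.22 ± 0.0695, adjusted p = 0.0146, in a comparison in which 46.1% of genes were called). Against WT-WT, KO-KO cells held 0.46 ± 0.0695 more Bmp4 (adjusted p = 6.11e-05, 1.38-fold). Within the clones taken separately, the Trim71 difference with Lin28a intact was 0.29 (adjusted p = 0.198) in clone E3 and 0.48 (adjusted p = 0.0947) in clone 1, whose single KO-WT library was taken to vary like the other genotypes, and without Lin28a 0.31 (adjusted p = 0.161) in clone C1 and 0.36 (adjusted p = 0.104) in clone 1-4, so the sign was kept in each clone and the call in none. It was also lost with Lin28a intact when WT-WT replicate 4 was left out (0.29, adjusted p = 0.0513), and when the fit held those 2 genotypes alone (0.37, adjusted p = 0.126). An annotated gene on the opposite strand, Gm15217, overlaps an exon of Bmp4, and whether counting used strand is not given in the sources used here. Gm15217 was listed at 1.15 in WT-WT and 1.12 in KO-WT, and at 1.21 in WT-KO and 1.43 in KO-KO (means). Its groups overlapped where Lin28a was intact. Where Lin28a was absent they did not, and KO-KO was the higher in 5 of 5 same-day pairs. Gm15217 was below the filter and not among the genes tested, and its part in the Bmp4 differences was not tested.

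Bmp7, a second BMP ligand, was not called in any comparison. Its libraries ran from 5.57 to 6.21, and the means were 5.94 ± 0.0452 in WT-WT, 5.86 ± 0.0934 in KO-WT, 5.88 ± 0.203 in WT-KO and 5.80 ± 0.141 in KO-KO (SD). All 4 genotypes overlapped pairwise. The 95% interval of the difference was -0.32 to 0.16 for Trim71 loss and -0.28 to 0.17 for Lin28a loss, each in otherwise intact cells, so changes of up to about those sizes were not excluded by the test.

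Bmpr1a encodes a type I receptor that binds BMP4. Its values were 9.15, 9.07, 9.46 and 9.20 in WT-WT, 9.05, 9.21, 8.86 and 9.16 in KO-WT, 8.96, 8.94, 8.88, 9.09 and 8.92 in WT-KO, and 9.04, 9.01, 9.07, 8.81 and 8.94 in KO-KO libraries. WT-WT replicate 3 was the highest of all, and the groups overlapped in every comparison. Bmpr1a fell by 0.26 with Lin28a loss where Trim71 was intact (SE 0.0879, adjusted p = 0.0244) and fell by 0.24 with loss of both genes (SE 0.0879, adjusted p = 0.0326), whereas with Lin28a loss in Trim71-null cells the difference was -0.09 ± 0.0879 (adjusted p = 0.421). Leaving out WT-WT replicate 3 made the first difference -0.15 (adjusted p = 0.138) and the second -0.13 (adjusted p = 0.183), which moved both by over 1.5 times and ended both calls. Leaving out WT-KO replicate 1, 3 or 5 ended the first call and leaving out WT-WT replicate 4 or KO-KO replicate 4 or 5 the second. The annotated gene Gm17110 overlaps an exon of Bmpr1a on the opposite strand, with means of 1.88 to 1.98 in the 4 genotypes, which overlapped. It too was below the filter and not among the genes tested.

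Smad1, which carries the signal from the receptor to the nucleus, was lowest in WT-WT. Its values were 6.80, 6.80, 6.91 and 6.93 in WT-WT, 6.95, 6.97, 7.07 and 6.99 in KO-WT, 7.07, 7.05, 7.12, 7.11 and 7.03 in WT-KO, and 7.14, 7.14, 7.11, 6.91 and 7.06 in KO-KO libraries. No WT-WT library reached the range of KO-WT or WT-KO, and KO-KO replicate 4 alone fell within that of WT-WT. Smad1 rose by 0.22 ± 0.0637 with Lin28a loss in Trim71-intact cells (adjusted p = 0.0121, 1.16-fold) and by 0.21 ± 0.0637 with loss of both genes (adjusted p = 0.0125). With Trim71 loss alone it was 0.13 ± 0.0689 higher and not called (adjusted p = 0.207), and with Lin28a loss in Trim71-null cells 0.08 ± 0.0637 higher (adjusted p = 0.338). Both calls were lost without WT-WT replicate 1 (adjusted p = 0.0548 and 0.0568) or replicate 2 (0.0518 and 0.0533), while the differences stayed at 0.18 to 0.19. Each clone set alone also lost both calls, with differences of 0.18 to 0.24.

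Smad6, an inhibitor of BMP receptor signalling that is itself induced by BMP, was lowest in KO-KO. The KO-KO libraries read 5.19, 5.25, 4.95, 4.99 and 5.08, the KO-WT libraries 5.54, 5.31, 5.64 and 5.68, the WT-KO libraries 5.19, 5.25, 5.71, 5.35 and 5.53, and the WT-WT libraries 5.60, 5.56, 5.55 and 5.22. KO-KO did not overlap KO-WT, but it overlapped WT-KO and, through WT-WT replicate 4, WT-WT. With Trim71 loss in Lin28a-null cells it was lower in 4 of 5 same-day pairs, at -0.32 ± 0.114, and not called (adjusted p = 0.102), while the fit without the replicate block called it (adjusted p = 0.034). Smad6 fell by 0.45 with Lin28a loss in Trim71-null cells (SE 0.124, adjusted p = 0.00798) and fell by 0.39 with loss of both genes (SE 0.124, adjusted p = 0.0169). With only 1 of the 2 genes lost, against WT-WT, it was not called: the difference was 0.06 ± 0.134 for Trim71 (adjusted p = 0.805) and -0.07 ± 0.124 for Lin28a (adjusted p = 0.651). The interaction was -0.37 ± 0.176 and did not pass (adjusted p = 0.33), so the data do not show that the difference depends on the other gene. The call for loss of both was lost without WT-WT replicate 1, 2 or 3 or KO-KO replicate 3 (adjusted p between 0.0503 and 0.0694). Each clone set alone lost both calls, at -0.43 (adjusted p = 0.0507) and -0.57 (adjusted p = 0.1) for Lin28a loss in Trim71-null cells.

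Id1 had the widest range of the 10 genes between genotype means and was the only Id gene called for Trim71 loss. In WT-WT its values were 7.33, 7.32, 7.27 and 6.94, and in KO-WT 7.51, 7.95, 8.43 and 8.17. Without Lin28a they were 6.08, 6.68, 6.12, 5.86 and 5.94 in WT-KO and 6.32, 6.35, 6.37, 6.20 and 6.70 in KO-KO. Every Lin28a-null library lay below every Lin28a-intact one, every KO-WT library lay above every WT-WT one, and WT-KO and KO-KO overlapped.

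Id1 rose by 0.80 ± 0.2 with Trim71 loss where Lin28a was intact (adjusted p = 0.0224, 1.74-fold, higher in 3 of 3 same-day pairs, as groups that do not overlap must be). Without Lin28a it was 0.25 ± 0.171 higher and not called (adjusted p = 0.419, higher in 4 of 5 pairs). The test of the difference between these, the interaction, gave -0.55 ± 0.263 with adjusted p = 0.338 and a 95% interval of -1.11 to 0.01, so the Id1 response to Trim71 loss was not shown to depend on Lin28a. None of the 10 genes passed the limma interaction test, in which 0.02% of all genes were called, and 1 of them, Smad6, had an unadjusted p under 0.05. The Id1 call for Trim71 loss was lost without WT-WT replicate 3 (0.83, adjusted p = 0.053), WT-WT replicate 4 (0.66, adjusted p = 0.0875), KO-WT replicate 3 (0.59, adjusted p = 0.0945) or KO-WT replicate 4 (0.72, adjusted p = 0.0576). In the 2 genotypes alone it was 1.01 (adjusted p = 0.0503), in clone E3 it was 0.66 (adjusted p = 0.227), and in clone 1 it was 1.06 (adjusted p = 0.0361, with 1 KO-WT library). In this comparison the log2 differences of 14724 genes followed the GC content of their transcripts (rank correlation across genes 0.502, against 0.015 for Trim71 loss without Lin28a), and the Id1 transcript holds 54.7% GC, the 74.9th percentile of tested genes. With trends in GC and length removed together with the day term, Id1 was 0.71 higher (adjusted p = 0.0353) and Bmp4 0.31 higher (adjusted p = 0.0212). The log2 differences of the interaction followed GC content too (rank correlation across genes -0.497). Smad6 has a transcript of 60.8% GC, the 96.8th percentile of tested genes.

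With Lin28a loss Id1 fell by 1.08 in Trim71-intact cells (SE 0.185, adjusted p = 0.000234, 0.473 of the WT-WT level) and fell by 1.63 where Trim71 was absent (SE 0.185, adjusted p = 4.23e-06, 0.324 of the KO-WT level). It was lower in 4 of 4 same-day pairs in both, which follows from groups that do not overlap. In KO-KO cells it was 0.83 ± 0.185 below WT-WT (adjusted p = 0.00186). The means were ordered KO-WT (8.01 ± 0.389, SD), WT-WT (7.22 ± 0.183), KO-KO (6.39 ± 0.187) and WT-KO (6.14 ± 0.323), and the last pair was the only pair of neighbours that the test did not separate. The genes whose values followed Id1 most closely over the 18 libraries were Jun (Pearson r = 0.985), Bcar1 (0.966) and Cacng7 (0.963).

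Id2 had the largest difference with Lin28a loss and none was detected with Trim71 loss. Its values were 8.62, 8.71, 8.50 and 8.59 in WT-WT and 8.59, 8.62, 8.45 and 8.55 in KO-WT, against 6.79, 6.97, 6.81, 6.88 and 6.89 in WT-KO and 6.96, 6.76, 6.78, 7.10 and 6.88 in KO-KO. The lowest Lin28a-intact library, at 8.45, was far above the highest Lin28a-null one, at 7.10. Groups did not overlap for 6 of the 10 genes in each comparison of Lin28a loss, against 40.8% of all genes with Trim71 intact and 40.7% without. Id2 fell by 1.74 with Trim71 intact (SE 0.0752, adjusted p = 8.11e-11, 0.3 of the WT-WT level) and fell by 1.66 without it (SE 0.0752, adjusted p = 1.7e-10). Both clone sets gave nearly the same sizes, -1.72 and -1.67 in clones E3 and C1 and -1.76 and -1.63 in clones 1 and 1-4. With Trim71 loss the difference was -0.05 ± 0.0812 (adjusted p = 0.695, 95% interval -0.23 to 0.12) with Lin28a intact and 0.03 ± 0.0695 (adjusted p = 0.875, -0.12 to 0.17) without. Over the 18 libraries Id2 was followed most closely by Podxl (r = 0.995), 3830417A13Rik (0.994) and the keratin gene Krt7 (0.994).

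Id3 was lower in Lin28a-null cells by a smaller margin. Its values were 6.71, 6.78, 6.47 and 6.59 in WT-WT and 6.47, 6.62, 6.98 and 6.66 in KO-WT, against 6.17, 6.67, 6.09, 6.06 and 6.29 in WT-KO and 6.35, 6.13, 6.42, 6.39 and 6.37 in KO-KO. WT-KO replicate 2, at 6.67, lay within the range of WT-WT, so those genotypes overlapped, while KO-KO lay wholly below both Lin28a-intact genotypes. Id3 fell by 0.38 with Trim71 intact (SE 0.13, adjusted p = 0.0263) and fell by 0.35 without it (SE 0.13, adjusted p = 0.0376), and KO-KO against WT-WT gave -0.30 ± 0.13 (adjusted p = 0.0659). The first call was lost when any of 5 libraries was left out, WT-WT replicates 1 and 2 and WT-KO replicates 1, 3 and 4 (adjusted p up to 0.101). The second was lost without any of 7, WT-WT replicate 1, KO-WT replicates 2, 3 and 4 and KO-KO replicates 1, 2 and 5 (adjusted p up to 0.186), and without KO-WT replicate 3 the difference was -0.22, over 1.5 times smaller. It was lost as well with libraries brought to the same median (-0.32, adjusted p = 0.0587) and with GC and length trends removed with the day term (-0.29, adjusted p = 0.0605). Its closest followers were 0610005C13Rik (r = 0.937), Arfgap2 (0.929) and Etv2 (0.925).

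Id4, the fourth of the family, went the other way. Its values were 5.31, 5.39, 5.51 and 5.56 in WT-WT and 5.59, 5.57, 5.21 and 5.47 in KO-WT, and 6.09, 5.80, 6.16, 6.22 and 5.96 in WT-KO and 6.11, 6.15, 5.85, 6.03 and 5.98 in KO-KO. Every Lin28a-null library was above every Lin28a-intact one. Id4 rose by 0.60 ± 0.108 with Lin28a loss in Trim71-intact cells (adjusted p = 0.000326, 1.52-fold) and by 0.56 ± 0.108 without Trim71 (adjusted p = 0.000583, 1.48-fold), higher in 4 of 4 same-day pairs each, as groups that do not overlap must be. With Trim71 loss its difference was 0.02 ± 0.116 and -0.02 ± 0.0996 (adjusted p = 0.931 and 0.926). Both clone sets gave a rise of 0.55 to 0.61. Capn5 (r = 0.958), Mdc1 (0.957) and Serpinb6c (0.956) were most like it. The annotated genes A330033J07Rik and Gm49291 overlap Id4 exons on the opposite strand.

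Msx2, a homeobox gene and textbook BMP target, fell with Lin28a loss, and no difference was detected with Trim71 loss. Its values were 4.28, 4.36, 4.30 and 4.32 in WT-WT and 4.39, 4.06, 4.53 and 4.37 in KO-WT, against 3.34, 3.26, 3.49, 3.45 and 3.43 in WT-KO and 3.48, 3.48, 3.54, 3.17 and 3.33 in KO-KO. The Lin28a-null and Lin28a-intact libraries did not overlap. It fell by 0.92 with Lin28a loss where Trim71 was intact (SE 0.101, adjusted p = 2.88e-06) and fell by 0.94 where it was not (SE 0.101, adjusted p = 2.41e-06), to 0.528 and 0.522 of the level in the matching genotype. With Trim71 loss its 95% interval was -0.21 to 0.25 with Lin28a intact and -0.19 to 0.20 without.

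**Figure D3:**
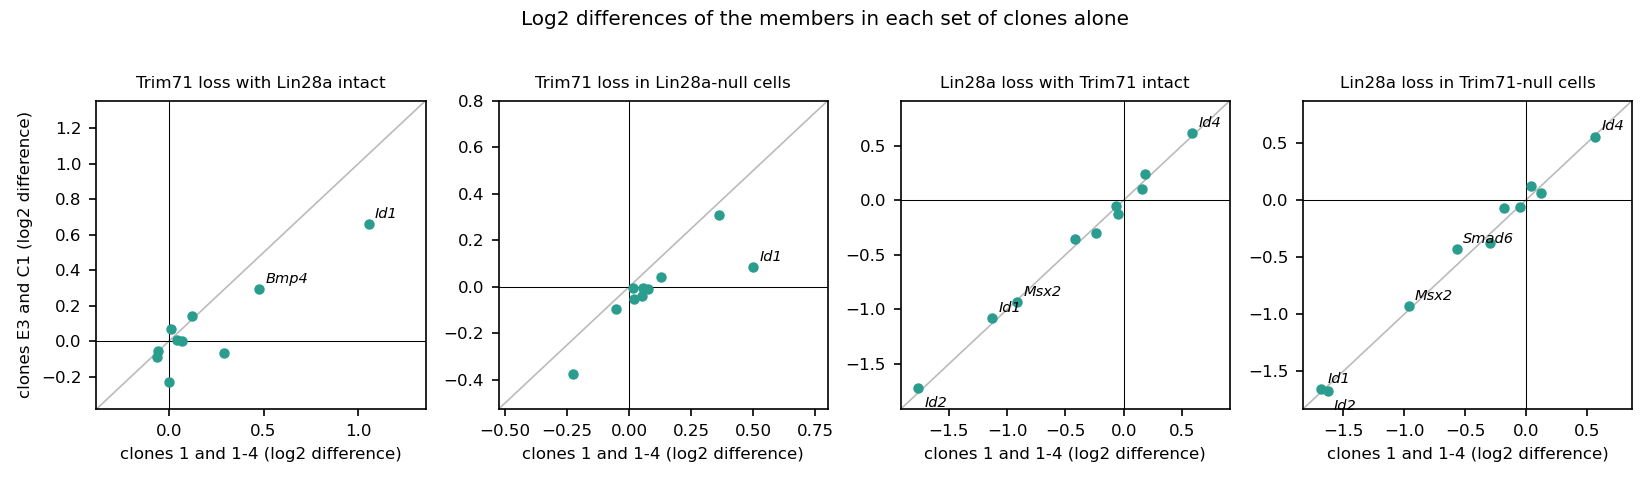
Log2 differences of the 10 genes computed in clones 1 and 1-4 alone (horizontal) against clones E3 and C1 alone (vertical) for 4 comparisons, with the line of equality. For Lin28a loss Id1, Id2, Id4 and Msx2 lie near the line in both panels, whereas for Trim71 loss with Lin28a intact Id1 is at 1.06 and 0.66.

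Markers of other cell types moved with Lin28a loss in the same libraries. Every sample underwent sorting for SSEA-1, which selects undifferentiated cells, and how far the sort removed such cell types was not tested. The levels are those after the sort. Summed after raising 2 to each value, 12 trophectoderm markers (10 tested) held 5182 to 6708 units in WT-WT and 5154 to 6183 in KO-WT libraries, against 1522 to 1783 in WT-KO and 1329 to 1630 in KO-KO libraries. Of the 10 tested, 8 fell and none rose with Lin28a loss in Trim71-intact cells, among them the keratins Krt8 (mean 10.96 in WT-WT, 6.74 in WT-KO) and Krt18 (10.80 and 6.60). These keratins were the highest of the list in Lin28a-intact cells and weigh most in the sums there. The 2 tested markers not called were the transcription factors Eomes (mean 5.30 in WT-WT, 5.43 in WT-KO) and Tfap2c (9.69 and 9.82). Of the defining trophectoderm factors, Elf5 was near the floor in every library (0.77 to 1.02), and Cdx2 averaged 2.86 in WT-WT and 2.04 in WT-KO. Neither Elf5 nor Cdx2 was tested. Of 10 primitive endoderm markers (8 tested), summed levels were 8844 to 9808 and 9284 to 11071 in the Lin28a-intact genotypes against 3779 to 4646 and 4387 to 5217 in the Lin28a-null ones, and 8 of 8 fell with Lin28a loss in Trim71-intact cells. Sparc was the highest of them (mean 12.60 in WT-WT, 11.50 in WT-KO) and weighs most in the sums. The transcription factors were lower: Gata4 (6.44 and 4.84), Gata6 (4.67 and 3.32), Sox17 (3.01 and 2.22) and Foxa2 (1.75 and 1.08). Sox17 and Foxa2 were too low to be tested. Of 12 fibroblast markers (7 tested), the sums were 1258 to 1515 in WT-WT and 827 to 912 in WT-KO libraries, and 5 fell and 1 rose. The 10 embryonic stem cell markers summed to 39597 to 41678 in WT-WT and 49407 to 55011 in WT-KO libraries, with 8 higher and none lower. Of all tested genes, 42.4% were called for Lin28a loss in Trim71-intact cells (20.3% higher and 22% lower). The markers moved in the same libraries as Id1, Id2, Id3, Id4 and Msx2, and their part in those differences was not tested. In bulk RNA, fewer cells of a type and less RNA per cell cannot be told apart.

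With Trim71 loss in Lin28a-intact cells, where Bmp4 and Id1 rose, 0 of 10 trophectoderm markers were higher and 1 lower, 1 of 8 primitive endoderm markers was higher and none lower, 0 of 7 fibroblast markers were higher and 1 lower (Acta2, -0.57, adjusted p = 0.0249), and 2 of 10 stem cell markers were higher and none lower. With Trim71 loss in Lin28a-null cells, where Bmp4 rose, 2 trophectoderm markers were lower, 2 primitive endoderm markers higher (Lama1 by 0.48 and Sox7 by 0.38), 2 stem cell markers higher and 1 early mesoderm marker lower, with none called among fibroblast and neural markers. Of all tested genes, 11.2% were called for Trim71 loss in Lin28a-intact cells (4.74% higher and 6.43% lower). In Lin28a-null cells the share was 8.38% (4.26% higher and 4.12% lower). Nothing particular to these markers is read from the counts, and their part in the Bmp4 and Id1 differences was not tested. Early mesoderm markers (3 of 9 tested) had none called with Trim71 loss in Lin28a-intact cells and 1 lower with Lin28a loss in Trim71-intact cells, and neural markers (5 of 8 tested) had none called in the former and 3 higher and 1 lower in the latter.

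A wider list of 69 BMP pathway genes, the 10 left out, was described in the same way, and 43 of them were tested. With Lin28a lost and Trim71 intact 10 were higher, 13 lower and 20 not called, where 20.3% of all tested genes were higher and 22% lower, with a median difference of -0.046 against -0.008 for all tested genes. For the 10 genes the median was -0.168. With Lin28a lost in Trim71-null cells 9 were higher and 13 lower (all genes 20.8% and 22%), and with both lost 13 higher and 15 lower (all genes 21% and 24.6%). With Trim71 lost 2 were higher and 1 lower in Lin28a-intact cells (all genes 4.74% and 6.43%) and 4 higher and 1 lower in Lin28a-null cells (all genes 4.26% and 4.12%). Nothing particular to the list is read from these counts.

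Among other ligands (6 of 16 tested), 1 rose and 3 fell with Lin28a loss in Trim71-intact cells, 1 rose and 2 fell in Trim71-null cells, and 1 rose and 3 fell with loss of both genes. The ligand genes that fell in the first, named after their values were seen, were Bmp6 (-0.83 ± 0.098, adjusted p = 6.85e-06), Bmp8b (-0.74 ± 0.0585, adjusted p = 8.79e-08) and Gdf11 (-0.27 ± 0.0943, adjusted p = 0.0308). In Trim71-null cells Bmp6 (-0.86 ± 0.098) and Bmp8b (-0.69 ± 0.0585) fell too, and Gdf11 was not called (-0.24 ± 0.0943, adjusted p = 0.0506). Gdf3, a TGF-beta family ligand of pluripotent cells, rose by 1.01 ± 0.0651 with Lin28a loss in Trim71-intact cells (adjusted p = 7.92e-09). In Trim71-null cells it rose by 0.97 ± 0.0651 (adjusted p = 1.18e-08). It averaged 9.16 ± 0.101 in WT-WT, 8.90 ± 0.115 in KO-WT, 10.17 ± 0.0767 in WT-KO and 9.87 ± 0.0657 in KO-KO (SD). With Trim71 loss Gdf3 fell by 0.26 with Lin28a intact and fell by 0.30 without it (adjusted p = 0.0285 and 0.00552). Bmp8a rose by 0.27 ± 0.0753 with Trim71 loss in Lin28a-null cells (adjusted p = 0.0353), at levels next to the filter of log2 of 10. It read 3.03 to 3.30 in WT-KO libraries, all below that filter, and 3.33 to 3.55 in KO-KO libraries, all above it. Receptors and co-receptors (9 of 11 tested) had 2 higher and 2 lower with Lin28a loss in either Trim71 state and none called with Trim71 loss in either Lin28a state. Secreted inhibitors, counted together with the membrane decoy Bambi (7 of 17 tested), had 2 lower with Lin28a loss in Trim71-intact cells, 1 higher and 4 lower in Trim71-null cells, 2 higher and 4 lower with loss of both genes, and none called with Trim71 loss in either Lin28a state. Bambi was among the lower genes each time (-0.24, -0.31 and -0.23). Of all tested genes, 42.4%, 42.8% and 45.6% were called in those comparisons, and 11.2% and 8.38% with Trim71 loss. Nothing particular to a role is read from these counts.

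Smad7, the other inhibitory SMAD, was higher in each mutant genotype than in WT-WT. It averaged 8.42 ± 0.0435 in WT-WT, 8.68 ± 0.0709 in KO-WT, 9.17 ± 0.056 in WT-KO and 9.42 ± 0.0398 in KO-KO (SD). The highest library of each of these genotypes lay below the lowest of the next, at 8.48 against 8.58, 8.75 against 9.08, and 9.21 against 9.36. Smad7 rose by 0.75 ± 0.0482 with Lin28a loss (adjusted p = 7.92e-09), by 0.26 ± 0.0521 with Trim71 loss (adjusted p = 0.00656), each in otherwise intact cells, and by 1.00 ± 0.0482 with both (adjusted p = 2.4e-10). With Trim71 loss in Lin28a-null cells it rose by 0.25 ± 0.0446 (adjusted p = 0.00264), a gene outside the naming rule for that comparison and named after its value was seen. Smad4, the partner of phosphorylated SMADs, differed by 0.07 ± 0.0516 with Trim71 loss (adjusted p = 0.356) and by -0.00 ± 0.0478 with Lin28a loss (adjusted p = 0.952), each in otherwise intact cells.

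Of the other targets and nuclear partners (9 of 12 tested), 5 fell and 3 rose with Lin28a loss in Trim71-intact cells, where 22% of all tested genes fell and 20.3% rose. Hand1 and Gata3, transcription factors of the trophoblast, fell by 2.88 (SE 0.132, adjusted p = 1.51e-10) and fell by 1.47 (SE 0.0712, adjusted p = 2.8e-10), and Dlx3, a homeobox gene of the placenta, fell by 1.00 (SE 0.103, adjusted p = 1.47e-06). Hand1 averaged 6.64 ± 0.13 in WT-WT and 3.76 ± 0.203 in WT-KO cells (SD). Dusp9, a phosphatase of MAP kinases, fell by 0.93 with Lin28a loss in Trim71-intact cells (SE 0.121, adjusted p = 1.66e-05), fell by 0.92 in Trim71-null cells (adjusted p = 1.93e-05), and fell by 0.77 with loss of both genes (adjusted p = 0.000101). Tbx3, a transcription factor of the naive state, rose by 0.40 ± 0.0984 with Lin28a loss in Trim71-intact cells (adjusted p = 0.0039), by 0.57 ± 0.0984 with Lin28a loss in Trim71-null cells (adjusted p = 0.000232) and by 0.34 ± 0.091 with Trim71 loss in Lin28a-null cells (adjusted p = 0.0292). Hes1, a repressor in Notch signalling, rose with Trim71 loss by 0.33 ± 0.0844 with Lin28a intact (adjusted p = 0.0233) and by 0.30 ± 0.0723 without it (adjusted p = 0.0191). It rose by similar amounts with Lin28a loss, 0.37 ± 0.0781 with Trim71 intact (adjusted p = 0.00139) and 0.33 ± 0.0781 without it (adjusted p = 0.00289). Of the 3 E protein genes, whose products Id proteins bind, 2 rose with Lin28a loss in Trim71-intact cells, Tcf4 by 0.52 ± 0.0929 (adjusted p = 0.000321), and none was called with Trim71 loss.

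**Figure D4:**
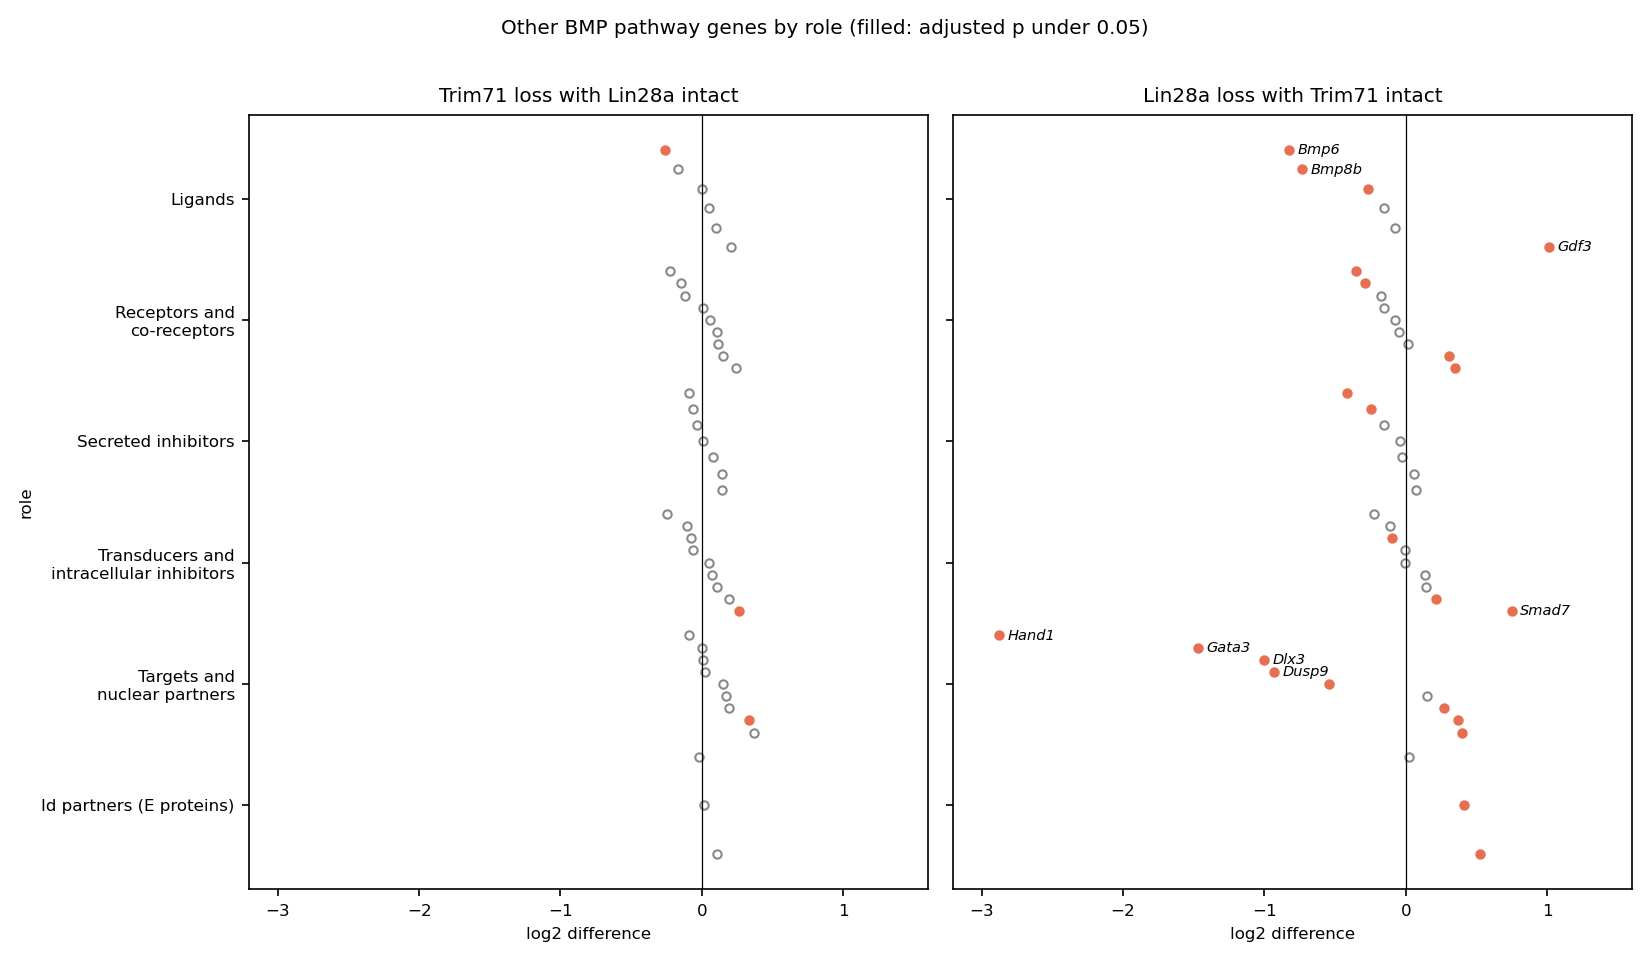
Log2 differences (horizontal) of the tested genes of the wider BMP list by role (vertical), for Trim71 loss with Lin28a intact (left) and Lin28a loss with Trim71 intact (right), filled where the limma adjusted p was under 0.05 and named where the size also passed 0.6. The membrane decoy Bambi is plotted with the secreted inhibitors. On the left 3 genes are filled, all within 0.4 of 0, and on the right 23, from Hand1 at -2.88 to Gdf3 at 1.01.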

How the data were processed

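mRNA libraries of 4 genotypes were read from 1 table deposited by the authors. Its values are of an unstated kind: that they are log2 was inferred from their range (-0.71 to 16.30), and no other unit was tested. The submitters' processing notes name CASAVA 1.8, STAR and DESeq2 without their roles; counting, strand use and genome build are not given in the sources used here. Fitted with genotype, day left nothing (no term above 1.7e-08, while shuffled days gave terms up to 1.19), so day effects had been removed before deposit. As clones 1 and 1-4 shared no day with E3 and C1, level differences between these clone sets went with them. KO-WT replicate 5 was the average of the remaining 4 of its genotype (largest gap 1.5e-08) and was left out, leaving 18 libraries.

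Genes reaching log2 of 10 in 4 or more libraries (14988 of 21685) were fitted in limma 3.58.1 (R 4.3.3; lmFit, contrasts.fit, eBayes with trend) with genotype and day, the replicate block, on 10 residual degrees of freedom; p-values were Benjamini-Hochberg adjusted over all 14988. The pairing comes from the day in the labels. The fit was tested on simulated data. Differences are of fitted values in log2. All 10 genes are described; of the wider list, up to 3 higher and 3 lower called genes per comparison by size were named, and for each Id gene the 3 genes of highest Pearson r. WT-KO against KO-WT was added after seeing the data. The genes, lists and fit were chosen with earlier results of these data known. Alternatives covered the day term, libraries, clones, days, filter, scaling, GC content and each library left out. GC content and 3′ UTRs came from the longest GENCODE vM21 transcript or UTR per symbol, and promoters and microRNAs from RefSeq tables (GRCm38.p6). Python 3.11.15, numpy 2.4.6 and pandas 2.3.3 were used for descriptions.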

Additional observations from a re-analysis of the deposited data

Results flagged for a closer look

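In each genotype the lowest and highest library of each of the 10 genes was compared with the rest, and 3 of 40 groups held a library far from the others, where chance gives about 1 in 20. Smad6 read 5.22 in WT-WT replicate 4 (day 5, clone 1) against 5.55 to 5.60 in the other WT-WT libraries. Id1 read 6.94 in the same library against 7.27 to 7.33. Without it the Id1 difference for Trim71 loss with Lin28a intact was 0.66 (adjusted p = 0.0875 in limma) in place of 0.80. Id3 read 6.13 in KO-KO replicate 2 (day 2, clone C1) against 6.35 to 6.42 in the other KO-KO libraries, and without it the Id3 difference for Lin28a loss in Trim71-null cells was -0.27 (adjusted p = 0.142) in place of -0.35. As day effects had been removed before deposit, a high library of 1 genotype goes with low ones of other genotypes on that day.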

How the results depend on the processing

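Of 60 differences (10 genes in 6 comparisons), 24 were called, and each of these 24 kept its sign in all 28 alternatives. Their call held in every alternative for 13: Id1, Id2, Id4 and Msx2 with Lin28a loss in either Trim71 state and with loss of both genes, and Bmp4 with loss of both. Leaving out 1 library ended between 0 and 5 of the 24 calls and added at most 1. Sign changes between values not called in either fit were not counted as reversals, and there were 0 to 7 of them per alternative, over 36 uncalled differences.

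For Trim71 loss with Lin28a intact the count of called genes, 2, became 0 with the 2 genotypes alone, 0 with clones E3 and C1, 1 with clones 1 and 1-4, and 0 to 2 with each library left out. Those smaller fits hold fewer libraries. The share of all tested genes called in each alternative fit is not given here, so nothing particular to the BMP genes is read from these counts. For Trim71 loss in Lin28a-null cells the count was 1, became 0 in each clone set alone, and was 2 without the replicate block (no day term), a fit that takes 14 residual degrees of freedom although day had been removed before deposit. In clones E3 and C1 alone it was 4 in place of 7 for Lin28a loss with Trim71 intact and 5 in place of 8 for loss of both genes. Leaving out each library gave 5 to 7, 5 to 6 and 6 to 9 for Lin28a loss with Trim71 intact, Lin28a loss in Trim71-null cells and loss of both, and 0 throughout for the interaction. Dropping the replicate block ended no call and added 2, Smad6 for Trim71 loss in Lin28a-null cells (adjusted p = 0.034) and Id3 for loss of both genes (adjusted p = 0.0276). Of the 24 calls, clones E3 and C1 alone lost 11, clones 1 and 1-4 alone 7, the 2 genotypes alone 4, the 3 days with all genotypes 4, the same median 2 and the GC and length correction 1, while all 19 libraries, no filter and the same 75th percentile lost 0. Calls were also added, 2 by the GC and length correction and 1 by the 2 genotypes alone. The 11 calls lost somewhere were Bmp4 and Id1 for Trim71 loss with Lin28a intact, Bmp4 for Trim71 loss in Lin28a-null cells, Bmpr1a, Smad1 and Id3 for Lin28a loss with Trim71 intact, Smad6 and Id3 for Lin28a loss in Trim71-null cells, and Bmpr1a, Smad1 and Smad6 for loss of both. The cause of these losses was not tested. The number of libraries and the unstated transform of the values limit the precision, since read depth is unknown.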
